A study of Mus musculus with 18 samples.

Results

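Coch Crabp1 fibroblasts were skin fibroblasts chosen by their counts of 2 genes, Coch and Crabp1. Coch encodes cochlin, a secreted matrix protein best known from the inner ear, and Crabp1 encodes a cytosolic protein that binds retinoic acid. Kept barcodes had at least 200 genes, at least 500 unique molecular identifiers (UMIs, each standing for 1 captured RNA molecule) and at most 10% mitochondrial UMIs. A cell passed as a fibroblast when Col1a1, Col1a2, Col3a1 and Dcn made up at least 1% of its UMIs, with at least 1 UMI of Pdgfra, 0 of Ptprc and less than 0.3% of Krt5 and Krt14. Among these, a member was selected on at least 3 UMIs of Coch and Crabp1 together and under 4 UMIs of the dermal papilla genes Slc26a7, Prlr, Pappa2 and Corin. The rule found 3150 members among 10733 gated fibroblasts (29.3%), which is 6.67% of the 47251 kept cells. Control skin gave 1588 of them and expanded skin 1562.

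The cells came from back skin of mice and were profiled by droplet-based 3′ RNA sequencing. All mice had surgery: the skin was cut near the tail and a tunnel was opened beneath it up to the neck. Expanded (EXP) mice then received a hydrogel expander near the neck, which swells and stretches the skin over it, and control (CTRL) mice received none, so both arms carried a fresh wound. The presence of the implant and the stretch cannot be told apart in this design. Skin was collected on day 1 in sequencing rounds 1 and 2, on day 2 in rounds 1 and 2, and on day 4 in round 1, which gave 5 libraries per arm. Sorted living cells of all mice of an arm and round were pooled in 1 tube, so each library is a pool of mice and p-values measure the spread between pools. The labels used here name no strain, age or sex.

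The dermis is built by several kinds of fibroblast that differ with depth and with their distance from hair follicles. Fibroblasts at the follicle include the dermal papilla, which signals to the hair matrix, and the dermal sheath, which wraps the follicle and contracts. Crabp1 is widely used as a marker of papilla and follicle-linked fibroblasts in mouse skin, and cochlin is one of the less studied proteins of skin matrix. Follicle fibroblasts exchange Wnt, BMP, FGF and R-spondin signals with the epithelium, and the follicle is wrapped in a basement membrane.

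The 300 bases around the start sites of the 2 selecting genes and of Fmod, the gene that most set the members apart, are shown to give the sequence context of the genes that define the cells. They run from 250 bases before to 50 after the start in RefSeq on GRCm38.p6, the patch release of mm10, which the submitters' processing notes name. Coch lies at chr12:51593341-51605771 on the plus strand, Crabp1 at chr9:54764748-54773110 on the plus strand and Fmod at chr1:134037254-134048277 on the plus strand. The windows are chr12:51593091-51593390 for Coch, chr9:54764498-54764797 for Crabp1 and chr1:134037004-134037303 for Fmod. Capitals mark matches, on either strand, to the letters TATAAA of a TATA box, to CCAAT, to GGGCGG of a GC box or to TGANTCA of an AP-1 site.
Coch: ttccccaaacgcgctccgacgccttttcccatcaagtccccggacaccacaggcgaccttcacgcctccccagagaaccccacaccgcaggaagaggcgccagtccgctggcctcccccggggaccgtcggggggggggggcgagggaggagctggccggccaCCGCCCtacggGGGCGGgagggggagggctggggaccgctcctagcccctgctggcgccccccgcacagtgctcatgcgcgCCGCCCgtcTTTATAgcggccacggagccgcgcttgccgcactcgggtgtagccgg
Crabp1: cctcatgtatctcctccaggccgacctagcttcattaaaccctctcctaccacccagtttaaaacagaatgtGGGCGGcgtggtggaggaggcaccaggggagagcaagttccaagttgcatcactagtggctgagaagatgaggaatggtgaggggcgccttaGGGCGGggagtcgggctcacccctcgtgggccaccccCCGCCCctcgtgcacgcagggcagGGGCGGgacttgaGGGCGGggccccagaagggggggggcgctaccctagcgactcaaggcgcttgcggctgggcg
Fmod: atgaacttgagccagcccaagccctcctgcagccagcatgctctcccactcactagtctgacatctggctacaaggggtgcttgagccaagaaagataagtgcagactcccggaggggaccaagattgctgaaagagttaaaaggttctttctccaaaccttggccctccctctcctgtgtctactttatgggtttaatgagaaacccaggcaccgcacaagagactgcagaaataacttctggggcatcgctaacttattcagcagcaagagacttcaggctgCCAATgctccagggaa
The Coch window held 3 matches to the GC box letters and 1 to the TATA letters. The Crabp1 window held 5 matches to the GC box letters, and the Fmod window 1 to the CCAAT letters. The TATA match in Coch and the CCAAT match in Fmod lay at positions 4 and 35 after the start, not before it. No AP-1 letters lay in any of the 3 windows. Of 32851 mouse windows of this length, 35.7% held the GC box letters, 13.6% the TATA letters, 37.4% the CCAAT letters and 7.81% the AP-1 letters. Bases G and C made up 73.7% of the Coch window, 65% of the Crabp1 window and 51% of the Fmod window.

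Libraries held 17726739 to 75470722 gene UMIs and 1927 to 8312 kept cells. Members numbered 100 to 493 per library and summed to 1344983 to 7936497 UMIs, and levels are given as counts per 1000000 of that sum (CPM). Their median depth per cell ran from 6738 to 12630 UMIs in control libraries and from 9816 to 16695 in expanded ones. Median mitochondrial shares of members overlapped between the arms, at 2.1% to 3.42% and 2.18% to 2.99%. Doublet callers marked 55 of the 3150 members, and 2 members shared their barcode with a member of another library. In endothelial and immune cells, which should lack both genes, the share with 3 or more UMIs of Coch and Crabp1 was 0 to 1.07% per library at median depths of 4412 to 12084 UMIs.

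The 2 selecting genes were high in members because the rule asked for them, so their levels are a description. Coch stood at 4488, 7518, 5201, 3605 and 4429 CPM in the control libraries of day 1 rounds 1 and 2, day 2 rounds 1 and 2, and day 4, the order used throughout. In expanded libraries it stood at 8446, 10809, 6438, 7612 and 4243 CPM. Other gated fibroblasts, which number 7395 and had under 3 UMIs of both genes together, held 5.41 to 11.5 CPM. Crabp1 ran from 1114 to 2758 CPM in members and from 8.5 to 25.6 CPM in the others. Just outside the threshold, 332 control and 98 expanded fibroblasts had exactly 2 UMIs, and just inside it, 178 and 47 had exactly 3.

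Of the remaining 2 genes proposed as markers, Masp1 was higher in members in every library and Tnn did not. Masp1, a protease that starts the lectin pathway of complement, was at 223, 382, 215, 330.3 and 211 CPM in control members and 537, 524, 359, 431 and 192 CPM in expanded members. In other fibroblasts it reached at most 222 CPM, and members were higher in 10 of 10 libraries. Tnn, the matrix protein tenascin-W, was higher in members in 7 of 10 libraries. It was at or below the level of other fibroblasts in the expanded libraries of day 2 and day 4, with 49.5, 28.2 and 43 CPM in members against 64.6, 28.3 and 44.5 CPM in the others.

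Follicle location itself was not measured. Some defining genes of the papilla were near 0 in members: Sox2 and Sox18 reached at most 1.42 and 1.39 CPM, and Corin, which the rule limits, 0.563 CPM. Of the contractile genes of the dermal sheath, Acta2 was at 0.596 to 42 CPM and Tagln at 9.66 to 79.5 CPM. The 11 listed sheath and contractile genes together summed to 288 to 608 CPM in members and 151 to 1033 CPM in other fibroblasts. Several genes often used for papilla cells were nevertheless higher in members than in other fibroblasts. The 21 listed papilla genes together summed to 1464 to 2727 CPM in members and 642 to 1229 CPM in other fibroblasts. Enpp2, which makes lysophosphatidic acid, averaged 988 CPM in control members against 179.5 in the others, and was higher in 10 of 10 libraries. Trps1, a zinc finger transcription factor of hair development, averaged 427 against 118 CPM and was also higher in 10 of 10. The cells are therefore called by their rule here, and their place at the follicle is the label's.

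Beyond the rule, many genes separated members from other fibroblasts. These are the 20 genes with the highest mean ratio among those at 20 CPM or more, and since the members were chosen on the same cells, they carry no test. Fmod (fibromodulin, a collagen-binding proteoglycan), with the highest mean ratio, ran from 326 to 1954 CPM in members and from 0 to 7.03 in others. Kera, the corneal proteoglycan keratocan, ran from 36.1 to 174 against 0 to 6.01 CPM. Tnmd (tenomodulin, a membrane protein of tendon cells), with the lowest ratio of the 20, ran from 225 to 878 against 8.95 to 75 CPM. Each of the 3 was higher in every library, with no overlap between the 2 sets.

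Secreted signals made up a further group. Cck, the prohormone of cholecystokinin, ran from 85.3 to 578 CPM in members and reached at most 2.37 CPM in others. Prok2 (prokineticin), Edn3 (endothelin 3, a growth factor for melanocytes), Rspo4 (an R-spondin, which strengthens Wnt signals), and the axon guidance proteins Sema3e and Ntn5 averaged 59.2, 27.9, 79.6, 50.02 and 22.1 CPM. In other fibroblasts these 5 averaged 3.22, 1.14, 5.65, 2.83 and 0.751 CPM. Pla2g7, the enzyme that inactivates platelet-activating factor, averaged 41.1 against 1.77 CPM, and Hs3st6, a heparan sulfate sulfotransferase, 33.8 against 0.827. Krt8, a keratin of simple epithelia, averaged 26.7 against 0.406 CPM. The rest of the 20 were Cpne5, Adgrl3, Clstn2, Gpm6a, Kif26b, Megf6, Plk5 and Sapcd1, with means of 22.7 to 79.9 CPM in members.

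On the other side, 8 genes were scarce in members. Trf (transferrin), Ebf2 (a transcription factor), Gpc3 (glypican 3), Mgp (matrix Gla protein) and Myoc (myocilin) averaged 1.72, 0.468, 11.9, 8.68 and 3.83 CPM in control members and 12.5, 14.5, 86.7, 90.9 and 31 in the other fibroblasts of control skin. In expanded skin the same 5 averaged 0.856, 1.21, 13.4, 8.21 and 0.647 CPM in members and 261, 48.2, 285, 96 and 31.5 in others, with higher means of Trf, Ebf2 and Gpc3 in the others than in control skin (not tested). Gpx3 (a secreted glutathione peroxidase), Ptx3 (a pattern recognition protein) and Cxcl13 (a B cell chemokine) completed the list. They stood at 13.8, 8.14 and 0.47 against 282, 111 and 33 CPM in control skin and at 6.34, 29.6 and 0 against 37.3, 277 and 11.5 CPM in expanded skin. Collagen was lower as well, though the gate used it: Col1a1 averaged 11362 CPM in members and 25425 in the others.

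Members were not uniform. Those with at least 3 UMIs of Coch (2084 cells, called Coch-positive here) and those with fewer (1066 cells, Crabp1-only, of which 907 had 0 UMIs of Coch) differed widely. Of the 20 genes that set members apart, 19 were higher in Coch-positive than in Crabp1-only cells in 10 of 10 libraries. Fmod averaged 1469 CPM in Coch-positive and 1.67 CPM in Crabp1-only members, and Cck 569 and 0.832 CPM. Other fibroblasts held 1.97 and 0.866 CPM of the same 2 genes. Crabp1 itself stood at 436 to 948 CPM in control and 533 to 2515 CPM in expanded Crabp1-only cells, with means of 691 and 1540 CPM. Enpp2 averaged 1621 CPM in Coch-positive and 162 CPM in Crabp1-only cells. Edn3, the exception among the 20, and Rspo4 were closer between the sets, with 34.9 and 118 CPM in Coch-positive and 19.8 and 35.5 CPM in Crabp1-only cells. The median depth was 7589 to 24286 UMIs per library in Crabp1-only cells and 6509.5 to 14610 UMIs in Coch-positive cells.

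The 2 sets differed from each other in the genes below in all 10 libraries, by ratios that again carry no test. Coch-positive cells also held Ogn (osteoglycin), Col11a1 (a minor fibrillar collagen), Wif1 (a secreted Wnt inhibitor) and Igfals, a partner of circulating IGF, at 754, 235, 527 and 25.7 CPM. The same genes stood at 19.97, 5.63, 26.6 and 0.0859 CPM in Crabp1-only cells. Crabp1-only cells held F13a1 (coagulation factor XIII A), Stc1 (the hormone stanniocalcin), Igfbp2, Grem1 (a BMP antagonist), Sema3a and Mme (the peptidase neprilysin) at 502, 279, 523, 776, 238 and 228 CPM. In Coch-positive cells these 6 stood at 15.1, 8.44, 25.7, 42.1, 8.13 and 14.3 CPM. Other fibroblasts held some of these genes too, with 135 CPM of Ogn, 167 of Igfbp2 and 519.6 of Grem1, and Grem1 was higher in members as a whole in 3 of 10 libraries.

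Fibroblasts with 4 or more UMIs of the papilla genes, 188 in all, offered a reference for the second set. The papilla limit kept 44 of them in control and 34 in expanded skin out of the members, and the others also had under 3 UMIs of Coch and Crabp1. The 188 averaged 549 CPM of F13a1, 289 of Stc1 and 479 of Mme, near or above the Crabp1-only cells. They were lower than those cells in Igfbp2, Grem1 and Sema3a, at 267, 294 and 215 CPM, and averaged 460.1 CPM of Crabp1. Prlr, a prolactin receptor limited by the rule, averaged 11 CPM in Crabp1-only, 0.76 CPM in Coch-positive and 354 CPM in the papilla-gene-high cells. With 7 to 34 such cells per library, their values are coarse.

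**Figure D1:**
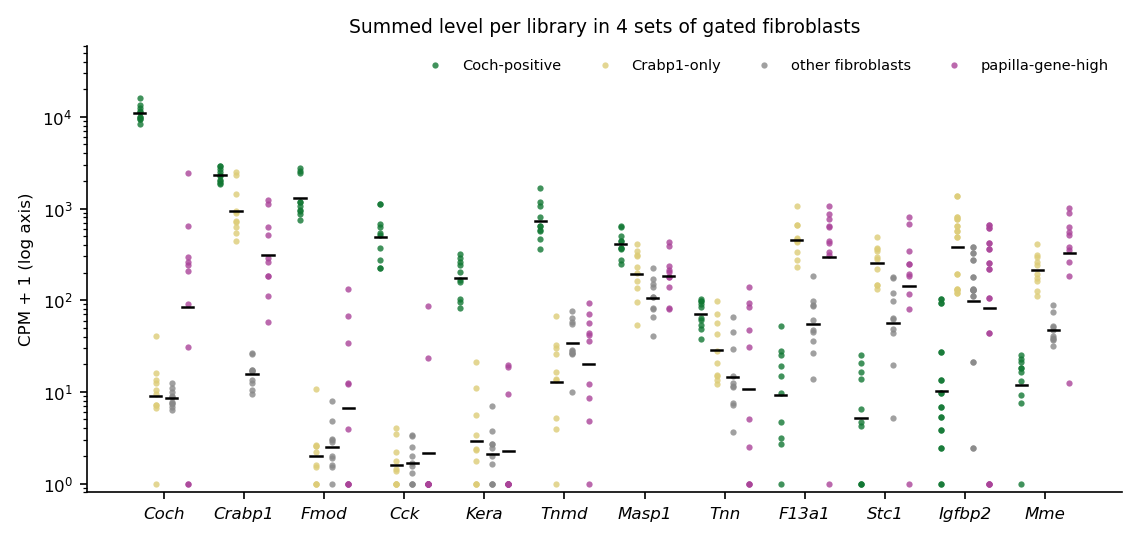
Level of 12 genes in each of the 10 libraries (points; CPM plus 1 on a log axis, black bars are geometric means) in Coch-positive members, Crabp1-only members, other gated fibroblasts and fibroblasts with 4 or more UMIs of the papilla genes. Fmod, Cck, Kera and Tnmd were high in Coch-positive cells, and F13a1, Stc1, Igfbp2 and Mme had higher geometric means in Crabp1-only and papilla-gene-high cells than in Coch-positive cells.

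In expanded skin, members made up a far larger share of the fibroblasts. Their share was 11.5, 20.5, 22.7, 26.9 and 22.7% in the control libraries and 55.7, 59.5, 75.8, 61.3 and 75% in the expanded libraries. The ranges did not overlap, and the expanded library was higher in 5 of 5 pairs of day and round. Mean shares were 20.9% ± 5.75 and 65.5% ± 9.29 (SD, n = 5 each), a difference of 44.6 percentage points (exact two-sided permutation test, p = 0.00794, the smallest that 5 against 5 allow; Benjamini-Hochberg adjusted p = 0.0238 over 6 shares). Treating day and round as pairs, an exact sign-flip test gave p = 0.0625, the smallest that 5 pairs allow. Thinned to 3000 UMIs per fibroblast and counted from 1 UMI, the shares were 23.6% and 66%, with 139 control and 25 expanded cells too shallow to enter. At that depth and minimum, 1.0% to 5.87% of endothelial and immune cells per library also had a UMI of Coch or Crabp1.

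Hashing antibodies assigned 1422 of the 2370 members of the 8 hashed libraries to single mice. Over 14 control and 14 expanded mice the share was 29.1% ± 9.5 and 75.1% ± 9.75 (SD), and the lowest expanded mouse, at 55.6%, lay above the highest control mouse, at 46.4%. In the day 1 round 2 pools every mouse lay above its pool's share, at 27.7% to 46.4% against 20.5% in control skin. In expanded skin of that round the mice were at 66.2% to 79.1% against 59.5%. The same held in the day 2 round 1 control and day 2 round 2 expanded pools, but not in the other hashed pools. The shares per mouse are thus of assigned cells only, and the part of assignment in their level was not tested. A permutation of mice within day and round gave p = 1e-05, the smallest that 100000 resamples can give; mice of an arm and round also share a pool, so they are not fully independent.

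Other gated fibroblasts made up a smaller part of the cells of expanded skin. They were 37.5, 20.7, 20.5, 12.6 and 19.1% of kept cells in control libraries and 12.3, 5.0, 2.51, 2.54 and 2.04% in expanded libraries. The share was lower in 5 of 5 pairs, with means of 22.1% ± 9.23 and 4.88% ± 4.3 (SD, n = 5; adjusted p = 0.0238 from an exact permutation test with p = 0.00794). With day and round as pairs the exact sign-flip test gave p = 0.0625 for this share too, which does not pass. Members themselves were 4.92, 5.44, 6.13, 4.88 and 5.73% and 16.7, 7.6, 8.58, 5.19 and 6.75% of kept cells. That is 5.42% ± 0.535 against 8.96% ± 4.5, higher in 5 of 5 pairs but past the threshold only before adjustment (exact permutation p = 0.0317, adjusted p = 0.0635). The expanded library of day 1 round 1 stood apart at 16.7%. Shares of dissociated cells cannot tell a change in tissue numbers from a change in how many cells were released and survived. The rule counts UMIs of Coch and Crabp1, so higher levels of either gene in expanded skin could also turn other fibroblasts into members. This was not tested.

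**Figure D2:**
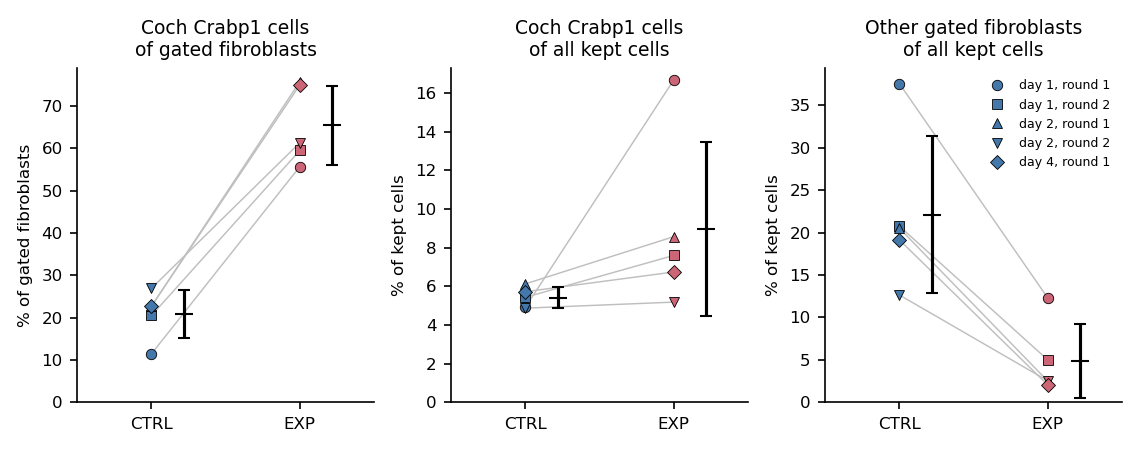
Shares per library in control (CTRL, blue) and expanded (EXP, red) skin, in percent, with lines joining libraries of the same day and round and black bars for the mean and SD (n = 5). Members rose as a share of gated fibroblasts in all 5 pairs, while other gated fibroblasts fell as a share of kept cells in all 5.

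Both sets of members were present in both arms. Crabp1-only cells were 39.7, 22.1, 38.8, 52.6 and 39.3% of members in control and 22.5, 25.1, 42.3, 26 and 47.2% in expanded libraries. The ranges overlapped and the means, 38.5% ± 10.8 and 32.6% ± 11.3 (SD, n = 5), did not differ past the threshold (exact permutation p = 0.421, adjusted p = 0.421). Coch-positive cells were 3.35% ± 0.74 of kept cells in control and 6.2% ± 3.86 in expanded libraries (exact permutation p = 0.0476, adjusted p = 0.0714). Members in expanded skin carried more of the selecting UMIs: 74.9% ± 4.77 of them had 20 or more, against 49.6% ± 5.25 in control skin; their median depth per cell was also greater, as given above, and its part in this was not tested. These last values describe what the rule used and have no test.

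Within members, many genes differed between expanded and control skin. Of 10917 genes tested, 707 were higher (6.48%) and 737 lower (6.75%) in expanded skin (quasi-likelihood test of edgeR, adjusting for day, Benjamini-Hochberg adjusted p under 0.05), and 1308 of these 1444 moved the same way in all 5 pairs. Genes of the rule and gate are left out of these counts. The median log2 fold change over all genes tested was 0.00. Leaving out single libraries gave 740 to 1795 called genes, and the count fell by over 1.5 times without the day 4 control (740), the day 4 expanded (749) or the day 1 round 2 control library (949). With cells thinned to 2000 UMIs, 524 genes were called.

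Tnc and Ereg were among the 12 largest rises. Tnc, the matricellular protein tenascin-C of healing tissue, stood at 153, 204, 218, 631 and 349.6 CPM in control members and 937, 1837, 2522, 1990.4 and 2647 CPM in expanded members. Every expanded library exceeded every control library, and the means were 311 ± 193 and 1987 ± 679.6 CPM (SD, n = 5; log2 fold change 2.68 with SE 0.27 and edgeR adjusted p = 0.00055). Ereg encodes epiregulin, a ligand of the EGF receptor that drives keratinocyte growth. It stood at 25.1, 38.7, 24.5, 23.7 and 38.7 CPM in control and 40.1, 136, 254, 398 and 468 CPM in expanded members (log2 fold change 2.73 with SE 0.46 and edgeR adjusted p = 0.00395). The day 1 round 1 expanded library was only just above the controls, and the other 4 were well above. Among Coch-positive cells alone the Ereg change was 1.79 with adjusted p = 0.082, and among Crabp1-only cells 3.47 with adjusted p = 0.000726.

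Lcn2, Saa1, Lrg1 and Il19, all genes of secreted proteins, were among the 12 as well. Lcn2 (lipocalin 2, which withholds iron from bacteria) went from 2.16, 1.79, 0, 12.1 and 7.86 CPM to 24.6, 56.2, 26.8, 206 and 119 CPM (log2 fold change 3.90 with SE 0.59 and edgeR adjusted p = 0.00255). Its groups did not overlap. Saa1 (serum amyloid A) went from 0.27, 2.09, 0, 22.1 and 16.7 to 132, 213, 44.5, 106 and 38.1 CPM (log2 fold change 3.32, edgeR adjusted p = 0.0171), and in Crabp1-only cells alone its rise was not called (adjusted p = 0.318). Lrg1, a plasma glycoprotein of the acute phase, averaged 1.21 ± 1.41 and 23.9 ± 9.23 CPM (log2 fold change 4.02, edgeR adjusted p = 0.00104). Il19, a cytokine of the IL-10 family, averaged 2.96 ± 2.98 and 33.7 ± 27.8 CPM (log2 fold change 3.38, edgeR adjusted p = 0.000768). All 4 were higher in 5 of 5 pairs without overlap, and no control library held more than 22.1 CPM of any of them.

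The other genes named for a large rise were of varied function. Cemip, which breaks down hyaluronan, averaged 7.16 ± 5.8 and 67.8 ± 52.7 CPM (log2 fold change 2.92, edgeR adjusted p = 0.00532), and Dio2, which activates thyroid hormone, 5.79 ± 1.75 and 38.1 ± 18.4 CPM (log2 fold change 2.60, edgeR adjusted p = 0.00132). Prg4 (the lubricant protein lubricin) averaged 5.36 ± 6.16 and 48.9 ± 32.1 CPM (log2 fold change 3.22, edgeR adjusted p = 0.00166), and was not called in Coch-positive cells alone (adjusted p = 0.0502). Traf3ip3, Crybb3 and Lmcd1 rose with log2 fold changes of 3.20, 3.19 and 3.02 (edgeR adjusted p = 0.00055, 0.00611 and 0.00509). Traf3ip3 averaged 4.6 and 52 CPM in control and expanded Coch-positive cells, but 0.351 and 0.982 CPM in Crabp1-only cells, where it was not tested. Crybb3 averaged 4.31 and 77.9 CPM in Crabp1-only cells, but 1.47 and 3.46 CPM in Coch-positive cells. Neither Crybb3 nor Lmcd1 was tested in Coch-positive cells. The Crybb3 and Lmcd1 groups overlapped, and both were highest in the day 4 expanded library, at 96.1 and 78.1 CPM.

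Among the largest falls, Spon2 (spondin 2, a matrix protein with immune functions) led. It stood at 42.4, 25.9, 54.3, 33.7 and 40.4 CPM in control and 5.67, 2.03, 2.94, 0.563 and 1.85 CPM in expanded members (log2 fold change -3.72 with SE 0.34 and edgeR adjusted p = 0.000386). Col15a1, a collagen next to basement membranes, stood at 282, 303, 376, 229 and 304 and 92.9, 111, 113, 65.3 and 60.8 CPM (log2 fold change -1.83 with SE 0.20 and edgeR adjusted p = 0.000678). Clec3b (tetranectin, which binds plasminogen) stood at 341, 252, 236, 181 and 247 and 154, 102, 39, 27.6 and 30.5 CPM (log2 fold change -2.16 with SE 0.28 and edgeR adjusted p = 0.00127). In each of these 3 genes every expanded library lay below every control library. Mfap4, which binds elastic fibres, averaged 759 ± 273 and 257 ± 146 CPM (log2 fold change -1.76, edgeR adjusted p = 0.00294), and Sema3b, a guidance protein, 32.9 ± 14.8 and 8.53 ± 2.79 CPM (log2 fold change -1.95, edgeR adjusted p = 0.00107).

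Meg3, Mirg, Hspa1b, Cldn10, Glt8d2 and Cyp2f2 fell too. Meg3 and Mirg, noncoding RNAs of 1 imprinted cluster, averaged 693 ± 174 and 49.2 ± 26.4 CPM in control and 219.8 ± 53.3 and 6.96 ± 2.8 CPM in expanded members (log2 fold changes -1.71 and -2.81, edgeR adjusted p = 0.00127 and 0.000993). Hspa1b, a stress-induced chaperone whose reads cannot be told apart with certainty from those of its near-identical neighbour Hspa1a, averaged 238 ± 37 and 80.3 ± 29.9 CPM (log2 fold change -1.69, edgeR adjusted p = 0.00055). Cldn10 and Glt8d2 fell by 1.75 and 1.74 on the log2 scale (adjusted p = 0.00104 and 0.00593). Cyp2f2, a cytochrome P450, averaged 136 ± 123 and 46.3 ± 59.5 CPM (log2 fold change -1.78, edgeR adjusted p = 0.0427). Its call was lost in 7 of 10 fits without 1 library, with an adjusted p of up to 0.144 without the day 1 round 1 control library, where it was highest, at 348 CPM.

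Cd74, a partner of MHC class II that is abundant in immune cells, averaged 39.4 ± 15.9 CPM in control and 8.68 ± 5.12 CPM in expanded members (log2 fold change -2.37, edgeR adjusted p = 0.000768). Of the 7 immune cell markers listed, 3 were tested, and Cd74 and Lyz2 were lower (Lyz2 not without the day 1 round 1 expanded library, adjusted p = 0.0559). Their summed level was 17.8 to 90.0 CPM in control and 15.8 to 41.8 CPM in expanded members, and Ptprc, which the gate removes, was at 0. In other fibroblasts Cd74 averaged 52.2 CPM in control and 11.2 CPM in expanded skin. The part of RNA from immune cells in this change was not tested. Keratinocyte, endothelial, pericyte, Schwann cell, melanocyte and adipocyte markers gave 0 calls among 10 tested genes of 29 listed, and by list they summed to at most 139 CPM.

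**Figure D3:**
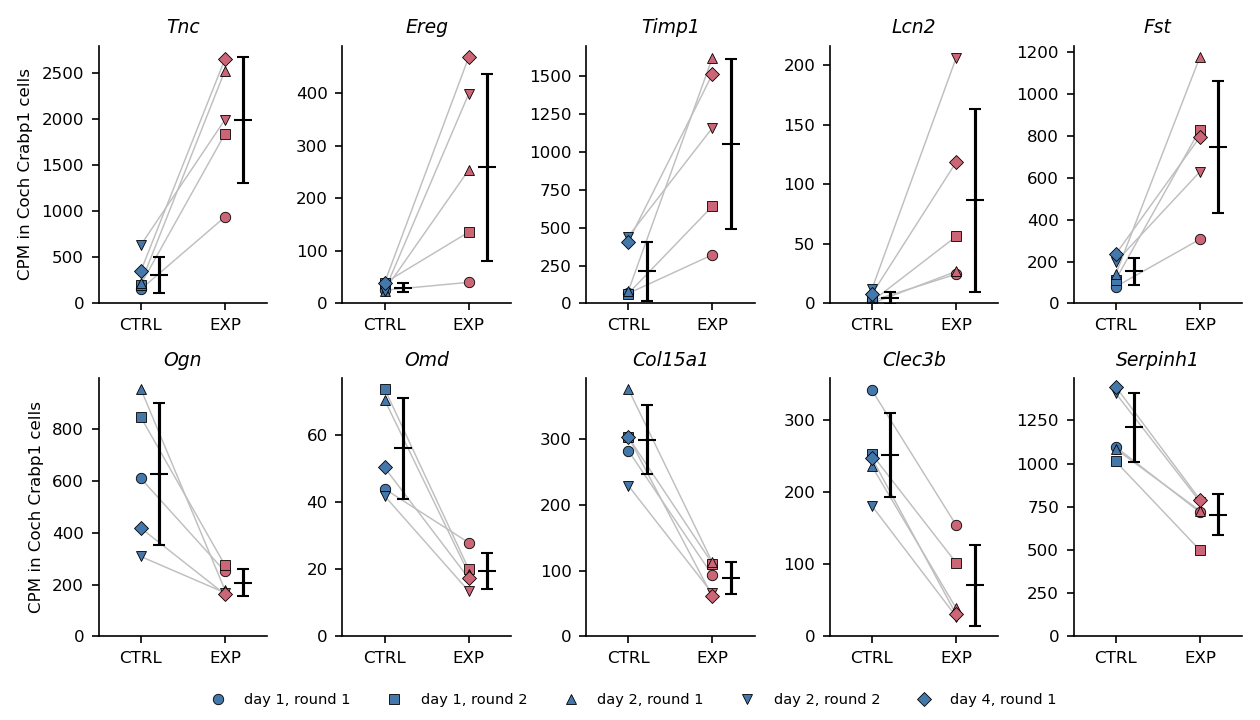
Level of 10 genes in Coch Crabp1 cells, in CPM, for each control (blue) and expanded (red) library, with lines joining libraries of the same day and round and black bars for the mean and SD (n = 5). The upper 5 genes were higher and the lower 5 were lower in expanded skin in all 5 pairs.

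The changes are read below by groups of genes, and each count stands against the background of 6.48% higher and 6.75% lower among all genes tested. Small leucine-rich proteoglycans, which coat collagen fibrils and include Fmod and Kera, had 7 of 10 tested genes lower and 0 higher, with a median log2 fold change of -0.94 (14 listed; Dcn, a gate gene, is not counted). Ogn stood at 610.3, 847, 955, 309 and 418 CPM in control and 251, 275, 179, 168 and 162 CPM in expanded members (log2 fold change -1.67 with SE 0.25 and edgeR adjusted p = 0.00255). Omd (osteomodulin) stood at 44, 73.9, 70.6, 41.9 and 50.4 and 28, 20.1, 18.8, 13.5 and 17.3 CPM (log2 fold change -1.54 with SE 0.20 and edgeR adjusted p = 0.00114). Aspn (asporin) averaged 1794 ± 334 and 957 ± 203 CPM, and Ecm2 463 ± 201 and 172 ± 60.8 CPM (adjusted p = 0.00264 and 0.0044). The arms did not overlap for Ogn, Omd or Aspn, and Ecm2 was lower in 5 of 5 pairs with some overlap.

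Fmod and Kera, which mark Coch-positive members, were lower as well but less evenly. Fmod stood at 1285, 1954, 1262, 373 and 501 CPM in control and 786, 778, 501, 492 and 326 CPM in expanded members (log2 fold change -0.90, edgeR adjusted p = 0.0439). The arms overlapped, the day 2 round 2 pair went the other way, and the call held in 1 of 10 fits without 1 library (adjusted p up to 0.159 without the day 2 round 1 control library). Kera stood at 138, 152, 174, 92.4 and 145 and 69, 53.8, 74.3, 108 and 36.1 CPM (log2 fold change -1.19, edgeR adjusted p = 0.00899), and its call held in 10 of 10 such fits. Podn was called too (adjusted p = 0.0431) and kept its call in 2 of 10 fits.

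Basement membrane genes had 9 of 18 tested genes lower and 0 higher, with a median log2 fold change of -0.49 (27 listed). Besides Col15a1, the perlecan gene Hspg2 averaged 119 ± 21.5 and 79.2 ± 18.5 CPM (log2 fold change -0.67, edgeR adjusted p = 0.00445), and the laminin chains Lama2 and Lamb2 267 ± 57.2 to 183 ± 40.1 and 124 ± 33.2 to 93.9 ± 24.8 CPM (adjusted p = 0.0366 and 0.0423). Lama2 and Lamb2 kept their calls in 3 and 2 of 10 fits without 1 library. Among those not called, Col4a1, a chain of type IV collagen, averaged 552 ± 139 and 475 ± 184 CPM (adjusted p = 0.264).

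Collagens beyond the gate genes had 6 of 14 tested genes lower and 1 higher (19 listed). Col14a1, which sits on fibril surfaces, and Col8a2 had log2 fold changes of -1.26 and -1.49 (edgeR adjusted p = 0.0268 and 0.0135). Col6a1, Col5a2, Col5a1 and Col16a1 were lower, at 1205 ± 93.7, 988 ± 113, 469 ± 117 and 315 ± 78.7 CPM in control and 964 ± 67, 725 ± 143, 287 ± 45 and 199.8 ± 29 CPM in expanded members (adjusted p = 0.0304, 0.0142, 0.0135 and 0.0205). The 2 chains of type V collagen kept their calls in 10 of 10 fits without 1 library, Col6a1 and Col16a1 in 3 of 10, Col14a1 in 4 and Col8a2 in 8 (adjusted p up to 0.0845 for Col14a1). Col23a1, a transmembrane collagen, went the other way, from 35.9, 51.6, 76.6, 72.6 and 68.2 CPM in control to 84.4, 109, 154, 178 and 183 CPM in expanded members (log2 fold change 1.15 with SE 0.13 and edgeR adjusted p = 0.000718). The gate genes Col1a1 and Col3a1, given as description, averaged 15941 ± 9995 and 13641 ± 4444 CPM in control and 6783 ± 2173 and 7186 ± 1142 CPM in expanded members.

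Enzymes that fold and process collagen had 4 of 16 tested genes lower and 0 higher (17 listed). Serpinh1, the collagen chaperone HSP47, stood at 1097, 1012, 1085, 1407 and 1445 CPM in control and 719, 499, 727, 780.4 and 792 CPM in expanded members (log2 fold change -0.84 with SE 0.12 and edgeR adjusted p = 0.00191), with no overlap. The prolyl hydroxylases P4ha1 and P4ha2 and the procollagen enhancer Pcolce2 were lower too (log2 fold changes -0.69, -1.17 and -1.41, adjusted p = 0.0165, 0.00301 and 0.00583), P4ha1 with a call kept in 8 of 10 fits without 1 library (adjusted p up to 0.0665). The crosslinking enzyme Lox, at 191 ± 76.2 and 211 ± 80.1 CPM, was not called (adjusted p = 0.774).

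Matricellular genes moved both ways, with 4 of 22 tested higher and 4 lower (24 listed). Tnc, Spp1 (osteopontin), Smoc2 and Ccn3 were higher, and Sparc, Fbln1, Tnxb and Fn1 (fibronectin) were lower. Sparc, a collagen-binding calcium protein, averaged 13454 ± 4114 and 7179 ± 1405 CPM (log2 fold change -0.97, edgeR adjusted p = 0.00722), and Fn1 258 ± 131 and 115 ± 52.3 CPM (log2 fold change -1.15, edgeR adjusted p = 0.00406). Fbln1 and Tnxb had log2 fold changes of -1.19 and -0.77 (adjusted p = 0.00364 and 0.0267). Ccn3 and Smoc2 had 1.60 and 0.83 (adjusted p = 0.00246 and 0.0331). Tnxb and Smoc2 kept their calls in 4 of 10 fits without 1 library (adjusted p up to 0.10 and 0.106). Spp1 rested on 1 library: it was at 4.16, 2.03, 17.5, 1.13 and 1002 CPM in expanded members, and without the day 4 expanded library its adjusted p was 0.273 with a log2 fold change of 1.40.

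Proteases and their inhibitors also moved both ways, with 4 of 18 tested higher and 5 lower (24 listed). Timp1, an inhibitor of metalloproteinases, stood at 65.6, 65, 80.3, 442 and 408 CPM in control and 321, 642, 1623, 1159.9 and 1514 CPM in expanded members (log2 fold change 2.43 with SE 0.37 and edgeR adjusted p = 0.00246). Within each pair expanded skin was higher, and the ranges overlapped, since the day 1 round 1 expanded pool lay below the day 2 round 2 and day 4 controls. Mmp3 (stromelysin 1) averaged 743 ± 272 and 2483 ± 1230.5 CPM (log2 fold change 1.55, edgeR adjusted p = 0.0172), and was lower in the expanded library of day 1 round 1, with its call kept in 6 of 10 fits without 1 library. Adamts1 and Adamts5 were higher and Timp2, Mmp23, Mmp16, Mmp27 and Adamts12 lower (log2 fold changes 0.60 and 0.80, and -1.25 to -0.42). Adamts5, Timp2, Mmp23 and Adamts12 kept their calls in 2 of 10 such fits, Adamts1 in 4 and Mmp27 in 5 (adjusted p up to 0.121, for Timp2).

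Chemokines had 4 of 14 tested genes higher and 1 lower (22 listed). The neutrophil attractants Cxcl1, Cxcl2 and Cxcl5 were higher. Cxcl1 stood at 226, 187, 336, 307 and 613 CPM in control and 354, 925, 1177, 735 and 1826 CPM in expanded members (log2 fold change 1.54 with SE 0.24 and edgeR adjusted p = 0.00257). Cxcl5 stood at 0.54, 0, 0, 6.9 and 14 and 8.32, 51.5, 244, 2.82 and 844 CPM (log2 fold change 5.45, edgeR adjusted p = 0.00622), so it was uneven between expanded pools and, in the day 2 round 2 pair, lower than in control. Cxcl2 averaged 112 ± 54.8 and 505 ± 278 CPM (adjusted p = 0.0284) and Cxcl14 34.9 ± 14.1 and 113 ± 84.2 CPM (adjusted p = 0.0381), both with calls kept in 2 of 10 fits. Ccl7, a monocyte attractant, fell from 653 ± 124 to 393 ± 64.7 CPM (log2 fold change -0.78, edgeR adjusted p = 0.0071). Ccl2, a related attractant, averaged 1158 ± 290.4 and 771 ± 302 CPM and was not called (adjusted p = 0.132).

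Cytokines and their receptors had 4 of 18 tested genes higher and 2 lower (24 listed). Higher were the receptors Il1r1 and Il13ra1 and the cytokines Il11 and Il33. Il11 stood at 4.86, 5.96, 5.95, 9.11 and 12.1 CPM in control and 4.03, 9.33, 136, 51.2 and 269 CPM in expanded members (log2 fold change 2.89, edgeR adjusted p = 0.0129), so no day 1 expanded pool lay above the control range. Without the day 4 expanded library its adjusted p was 0.0706, and for Il33 (log2 fold change 2.21, edgeR adjusted p = 0.0154) it was 0.0753. Il1r1, the receptor for interleukin 1, averaged 115 ± 23.1 and 181 ± 40.1 CPM (log2 fold change 0.59, edgeR adjusted p = 0.00898). Il34, a ligand of the macrophage receptor Csf1r, fell from 52 ± 7.33 to 35.5 ± 6.77 CPM (adjusted p = 0.0126), and Il6ra had a log2 fold change of -0.61 (adjusted p = 0.0282; kept in 4 of 10 fits without 1 library). Il6 averaged 186 ± 56.9 and 237 ± 51.9 CPM and was not called (adjusted p = 0.487).

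Acute phase genes had 4 of 10 tested genes higher and 0 lower, with a median log2 fold change of 0.95 (13 listed). Besides Lcn2 and Saa1, the zinc importer Slc39a14 averaged 162 ± 44.9 and 301 ± 47.4 CPM and the metalloreductase Steap4 48 ± 11.9 and 96.1 ± 46.3 CPM (adjusted p = 0.00865 and 0.00323). Saa3 stood at 149, 31.3, 29.7, 963 and 727 CPM in control and 1065, 2869, 971, 1850.2 and 2662 CPM in expanded members, and just missed the threshold (adjusted p = 0.0537). Complement had 1 of 12 tested genes higher and 2 lower (20 listed). Cfb (complement factor B) averaged 104 ± 34.6 and 244 ± 106 CPM (log2 fold change 1.15, edgeR adjusted p = 0.00914), while Cd55, which protects cells from complement, fell from 109.5 ± 22.2 to 49.6 ± 5.73 CPM (log2 fold change -1.19, edgeR adjusted p = 0.000768). C7 was lower with a call kept in 2 of 10 fits. Masp1 was not called (adjusted p = 0.105).

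Signals that follicle fibroblasts exchange with the epithelium are read next, list by list. Wnt genes had 2 of 40 tested higher and 3 lower (54 listed), a share near the background. The receptor Fzd2 and the antagonist Dkk2, at 189 ± 26.7 and 421 ± 96.9 CPM in control members, were lower at 127 ± 19 and 289 ± 111 CPM (adjusted p = 0.00666 and 0.00992). The feedback inhibitor Nkd2 rose from 62.6 ± 9.31 to 121 ± 13.6 CPM (log2 fold change 0.88, edgeR adjusted p = 0.00132), and Dkk3 had a log2 fold change of 0.57 (adjusted p = 0.0127; kept in 8 of 10 fits without 1 library). Frzb, at under 4 CPM, was lower with a call kept in 1 of 10 fits. Wif1, the Wnt inhibitor of Coch-positive cells, averaged 258 ± 57.1 and 322 ± 157 CPM and was not called (adjusted p = 0.774).

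BMP genes had 2 of 24 tested genes higher and 0 lower (31 listed), and TGF-beta and activin genes 3 of 24 higher and 2 lower (24 listed). Fst (follistatin, which binds activin) is in both lists. It stood at 79.7, 114, 138, 197 and 235 CPM in control and 306, 829.5, 1176, 628 and 794 CPM in expanded members (log2 fold change 2.29 with SE 0.28 and edgeR adjusted p = 0.000999), with no overlap. Inhba, the activin subunit that follistatin binds, stood at 38.9, 53.3, 68.4, 91.9 and 97.2 and 48.1, 75.9, 289.6, 176 and 292 CPM (log2 fold change 1.06, edgeR adjusted p = 0.017), with a call kept in 7 of 10 fits without 1 library. Bmp7 averaged 11.8 ± 4.25 and 32.3 ± 10.3 CPM (log2 fold change 1.33, edgeR adjusted p = 0.00213). The latent TGF-beta binding proteins Ltbp3 and Ltbp4 were lower (log2 fold changes -0.67 and -0.70, adjusted p = 0.0107 and 0.0315), and the receptor Acvr1b higher (0.90, adjusted p = 0.0248). Ltbp4 kept its call in 3 and Acvr1b in 6 of 10 such fits (adjusted p up to 0.0837 and 0.0915).

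Hedgehog genes had 0 of 10 tested higher and 2 lower (14 listed), namely the coreceptors Gas1 and Cdon (log2 fold changes -0.55 and -0.65, adjusted p = 0.0085 and 0.0364). FGF genes had 0 of 19 tested higher and 1 lower, Fgfr2 (log2 fold change -0.62, edgeR adjusted p = 0.0223; 24 listed). Ligands and receptors of the EGF family had 1 of 6 tested higher, Ereg, and 0 lower (13 listed). Among insulin-like growth factor genes, 1 of 10 was higher, Igfbp3, and 3 were lower (10 listed). Igfbp5, a binding protein, fell from 2382 ± 356 to 1315 ± 342 CPM (log2 fold change -0.92, edgeR adjusted p = 0.00742), Igfbp6 from 443 ± 68.9 to 279.9 ± 103 CPM (adjusted p = 0.0199) and the receptor Igf2r by 0.82 on the log2 scale (adjusted p = 0.00279). Without 1 library, the calls of Cdon, Fgfr2 and Igfbp6 were kept in 3, 5 and 7 of 10 fits (adjusted p up to 0.114, 0.0804 and 0.0748).

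Retinoid genes, the pathway of Crabp1, had 1 of 16 tested genes higher and 0 lower (24 listed). Rdh10, which makes retinal, averaged 30.3 ± 10.8 and 50.9 ± 10.2 CPM (adjusted p = 0.0344; kept in 3 of 10 fits). Cyp26b1, which degrades retinoic acid, stood at 758, 981, 676, 1144 and 791 CPM in control and 1799, 1453, 1191, 1092 and 1010 CPM in expanded members, and missed the threshold (adjusted p = 0.0503). Papilla genes had 2 of 11 tested higher, Ndnf (log2 fold change 1.39, edgeR adjusted p = 0.00438) and Alpl (adjusted p = 0.0491; kept in 1 of 10 fits), and 0 lower (21 listed). Enpp2, Trps1 and Wif1 of that list did not pass. Sheath and contractile genes had 0 of 8 higher and 2 lower, Mylk and Itga8 (11 listed; Itga8 kept in 6 of 10 fits; log2 fold changes -0.89 and -1.51, adjusted p = 0.00893 and 0.0208).

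Genes named for dermal depth were mostly lower where they passed. Reticular and adventitial genes had 0 of 11 tested higher and 4 lower (15 listed): Cd34, Clec3b, Cd248 and Dpp4. Cd34 stood at 402, 391, 374, 375 and 420.3 CPM in control and 267, 156, 137, 218 and 154 CPM in expanded members (log2 fold change -1.15 with SE 0.16 and edgeR adjusted p = 0.00166), without overlap. Dpp4 averaged 54.1 ± 14.2 and 21.5 ± 8.01 CPM (adjusted p = 0.00406). Papillary and upper dermal genes had 1 of 10 tested higher, Col23a1, and 3 lower, Ntn1, Col18a1 and Col13a1 (13 listed; adjusted p = 0.0225, 0.0335 and 0.0456), the last 2 with calls kept in 3 and 2 of 10 fits, while Ntn1 kept its call in 6 and Cd248 in 8.

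Glycolysis genes had 5 of 18 tested genes higher and 1 lower, with a median log2 fold change of 0.28 (20 listed). Pkm (pyruvate kinase) stood at 271, 253, 206, 401 and 338 CPM in control and 475, 543, 691, 653 and 739.8 CPM in expanded members (log2 fold change 1.01 with SE 0.15 and edgeR adjusted p = 0.00257), without overlap. Gapdh, Ldha and Pgk1 rose too (log2 fold changes 0.56, 0.61 and 0.55, adjusted p = 0.00684, 0.00745 and 0.026), and Eno1 was the fifth. Pfkp was lower (-0.53, adjusted p = 0.0155). Pgk1 and Pfkp kept their calls in 4 and 8 of 10 fits without 1 library (adjusted p up to 0.0673 and 0.0548).

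Prostaglandin genes had 1 of 11 tested higher and 1 lower (15 listed). The synthase Ptges rose from 30.3 ± 11.9 to 126 ± 81.3 CPM (log2 fold change 1.75, edgeR adjusted p = 0.00365) and Hpgd, which inactivates prostaglandins, fell from 27.8 ± 11.6 to 13 ± 6.45 CPM (log2 fold change -1.09, edgeR adjusted p = 0.00406). Hyaluronan genes had 1 of 11 higher, Cemip, and 2 lower (12 listed): the synthase Has1 fell from 542 ± 152 to 287 ± 78.7 CPM (log2 fold change -0.97, edgeR adjusted p = 0.0128) and Itih5 by 1.01 on the log2 scale (adjusted p = 0.0227). Interferon genes had 0 of 18 higher and 2 lower, Gbp2 and Igtp (20 listed; adjusted p = 0.0208 and 0.0478). Itih5, Gbp2 and Igtp kept their calls in 5, 7 and 3 of 10 fits without 1 library (adjusted p up to 0.0782, 0.078 and 0.16).

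Lists of genes often read as signs of stretch, stress or division had shares of calls near or below the background. Of 18 tested YAP targets (22 listed), 0 were called in edgeR and 0 in DESeq2, with 6 at an unadjusted p under 0.05. Ccn1, a matricellular protein of that list, averaged 585 ± 126 and 769 ± 354 CPM (adjusted p = 0.412). SRF and actin genes had 2 of 23 higher, Actb and Zyx, and 1 lower (25 listed), a share near the background. The log2 fold changes of Actb and Zyx were 0.42 and 0.70 (adjusted p = 0.0441 and 0.0119), with calls kept in 2 and 8 of 10 fits without 1 library (adjusted p up to 0.136 and 0.0581). Immediate early genes had 1 of 25 higher, Ier3 (log2 fold change 0.68, edgeR adjusted p = 0.0032), and 0 lower (25 listed). Fos averaged 2866 ± 749 and 3787 ± 1348 CPM (adjusted p = 0.429). Of 21 tested genes of S and G2M phase (24 listed), 0 were called in edgeR and 0 in DESeq2, with 4 at an unadjusted p under 0.05. Pcna averaged 93.9 ± 23.4 and 124 ± 34.4 CPM (adjusted p = 0.159).

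**Figure D4:**
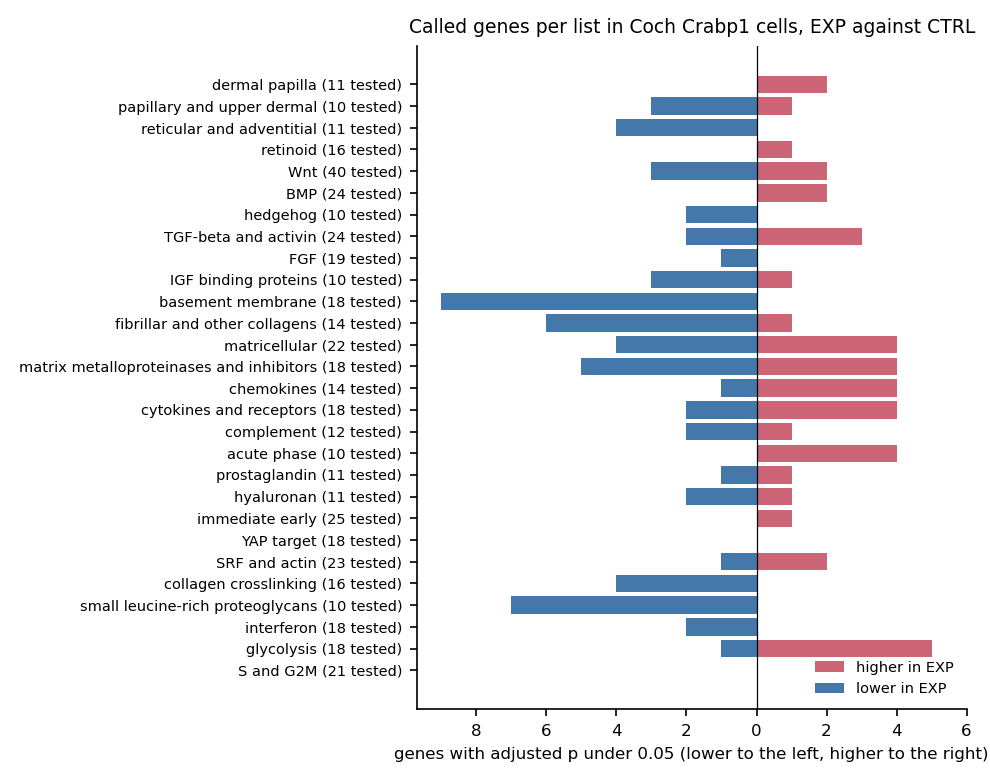
Number of genes per list that were lower (blue, to the left) or higher (red, to the right) in Coch Crabp1 cells of expanded skin, at an edgeR adjusted p under 0.05, with the number tested in brackets, for lists with 10 or more tested genes. Proteoglycan and basement membrane lists had 7 and 9 lower genes and 0 higher.

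Tested apart, Coch-positive members gave 799 called genes and Crabp1-only members 1229. Both called 422 of them, which is 52.8% of the first list and 34.3% of the second, and all 422 had the same direction in both. A direct test of the difference, added after these data were seen, called 20 of 10405 genes (0.192%; edgeR, library as a block), 13 with a more positive change in Coch-positive cells. Leaving out single libraries gave 1 to 41 calls, with 1 call without either control library of day 1, without the day 1 round 2 or day 2 round 1 expanded library, or without the day 4 control library.

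Fgl2, a secreted immune regulator of the fibrinogen family, had the smallest adjusted p and was the gene that kept its call in 10 of 10 such fits. It averaged 482 ± 54.9 and 382 ± 106 CPM in Coch-positive cells and 872 ± 221 and 264 ± 90.8 CPM in Crabp1-only cells of control and expanded skin (log2 difference 1.38, SE 0.16, edgeR adjusted p = 0.00155). Tspan5, a tetraspanin, went from 72.8 ± 12 to 103 ± 20.2 CPM in Coch-positive and from 50.4 ± 7.44 to 29.2 ± 8.76 CPM in Crabp1-only cells (log2 difference 1.24, SE 0.18, edgeR adjusted p = 0.0176; kept in 5 of 10). In the other direction, Pdgfrb, a receptor for platelet-derived growth factor, went from 214 ± 24.4 to 173 ± 25.7 CPM and from 179.7 ± 30.6 to 258 ± 51.4 CPM (log2 difference -0.82, SE 0.14, edgeR adjusted p = 0.040; kept in 3 of 10). Other genes called at 20 CPM or more included Tnfrsf21, Saa3, Slc27a6, Hk2, Pla2g7, Myo6 and Prrx2, with a more positive change in Coch-positive cells, and Auts2, Bpgm, Chst15, Tm4sf1, Acat3 and Uck2, with a more positive change in Crabp1-only cells (adjusted p = 0.040 to 0.0443).

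Few genes were called as changing differently between members and the remaining fibroblasts of the same libraries. These other fibroblasts numbered 448 to 2187 per control library, but 363, 294, 85, 49 and 70 in the expanded libraries. Their values in expanded skin of day 2 and day 4 are therefore coarse. A test of the difference in response called 17 of 11894 genes (0.143%; edgeR, library as a block), 11 with a more positive change in members and 6 with a more negative one. Leaving out single libraries gave 0 to 110 calls: 0 without the day 1 round 1 or the day 4 control library, 110 without the day 1 round 1 expanded library, and 4 to 10 without any other. Of the 17, 11 were at 20 CPM or more and are named here, and none of the 11 kept its call in all 10 fits.

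Igfbp3, which binds insulin-like growth factors, had the largest difference of the 11. Its levels in members were 14.3, 24.4, 26, 21 and 28.9 CPM in control and 61.7, 64.9, 91, 75.4 and 131 CPM in expanded skin, and in other fibroblasts 78.9, 75.9, 143, 72.3 and 52.2 and 48.4, 68.2, 27.5, 52.4 and 157 CPM. The members' arms did not overlap and those of the others did (log2 difference 2.26, SE 0.36, edgeR adjusted p = 0.0303; 2.00 to 2.56 without single libraries, call kept in 3 of 10). Prnp, the prion protein, stood at 469, 395, 312, 444 and 377 and 866, 776, 716, 525 and 587 CPM in members and 567, 526, 415, 457 and 414 and 686, 593, 511, 330.2 and 404 CPM in others (log2 difference 0.86, SE 0.12, edgeR adjusted p = 0.0261; kept in 8 of 10). It was higher in expanded members in 5 of 5 pairs.

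For some genes the other fibroblasts were the cells with lower values in expanded skin. Ptgfrn, a membrane partner of tetraspanins, averaged 185 ± 32.9 and 239 ± 51.3 CPM in members and 187 ± 13.1 and 117 ± 33 CPM in others (log2 difference 1.18, SE 0.17, edgeR adjusted p = 0.0303; kept in 6 of 10). Csf1, the growth factor of macrophages, averaged 131 ± 27.7 and 114 ± 41.6 CPM in members, where it was not called, and 283 ± 42.4 and 142 ± 52.8 CPM in others (log2 difference 0.93, SE 0.16, edgeR adjusted p = 0.0473; kept in 3 of 10). In other fibroblasts Csf1 and Ptgfrn were lower in 5 of 5 pairs. The pattern of a more positive change in members was also seen for Adamts2 (a procollagen protease), Lpar1 (a receptor for lysophosphatidic acid) and Dpt (dermatopontin, a matrix protein), with differences of 1.02, 0.69 and 0.79 (adjusted p = 0.0303, 0.0314 and 0.0473; kept in 4, 3 and 1 of 10). None of these 3 was called within members.

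Adamts1, a protease of proteoglycans, and Slc16a1, a lactate transporter, rose in members (log2 fold changes 0.60 and 0.85) and their change was more positive there than in others (differences of 0.87 and 0.79, adjusted p = 0.0303 and 0.0303; kept in 3 and 2 of 10). In the other direction, Sdc1, the proteoglycan syndecan 1, averaged 49.6 ± 12.8 and 59.8 ± 18.7 CPM in members and 17.4 ± 4.52 and 44.6 ± 15.9 CPM in others (log2 difference -0.98, SE 0.16, edgeR adjusted p = 0.0303; kept in 2 of 10). Spon2 was lower in expanded skin in 5 of 5 pairs of both, with a more negative change in members (log2 difference -1.41, SE 0.24, edgeR adjusted p = 0.0354; kept in 1 of 10). Tnc averaged 58.1 and 995 CPM in other fibroblasts, and the difference between its changes was not called (adjusted p = 0.126).

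**Figure D5:**
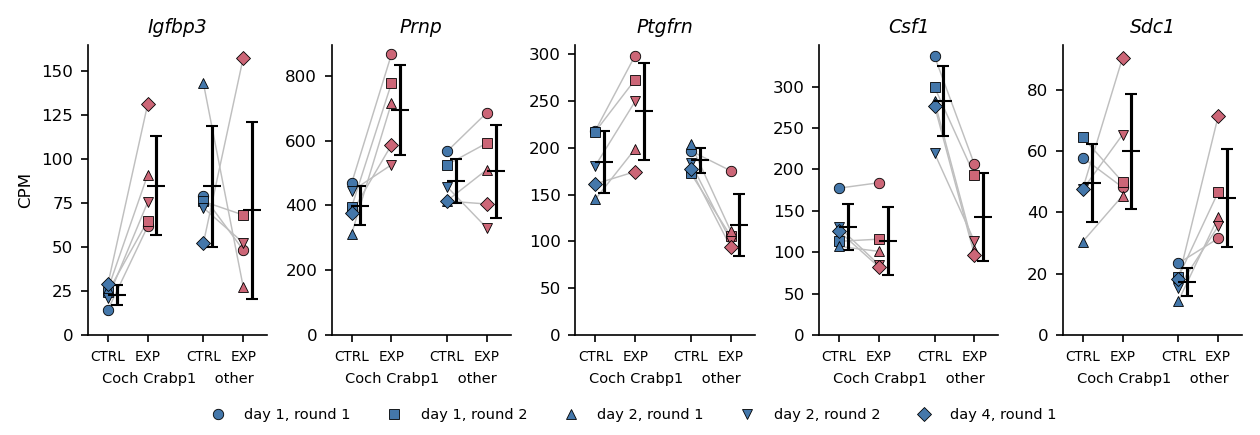
Level of 5 genes, in CPM, per library in Coch Crabp1 cells and in other gated fibroblasts of control (blue) and expanded (red) skin, with lines joining libraries of the same day and round and black bars for the mean and SD (n = 5). Igfbp3 and Prnp were higher in all 5 expanded libraries of Coch Crabp1 cells, and Csf1 was lower in all 5 expanded libraries of other fibroblasts.

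Whether the response changed between day 1 and day 2 could be tested with 2 pairs per day. Of 10917 genes, 0 (0.0%) passed in edgeR, 390 had an unadjusted p under 0.05, and DESeq2 called 4. The 5 genes with the smallest p at 20 CPM or more were Ccl19, Serpina3c, Plvap, Wif1 and Atf3, with differences (day 2 minus day 1) of -2.95, -2.03, -1.94, 1.68 and -1.18 on the log2 scale (edgeR adjusted p = 0.292 for Ccl19 and 1.00 for each of the rest). In counts simulated from these libraries, with changed genes above 20 CPM, the test found 9 of 100 genes with a log2 difference of 1. It found 80 of 100 with a difference of 2 (10788 genes) and also called 8 unchanged genes. Smaller differences were thus mostly not detectable with this number of pools. Day 4 has 1 pair and gives no test of its own.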

How the data were processed

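The 10 droplet libraries of mouse skin cells (5 control, 5 expanded) were read as deposited counts of UMIs per gene and barcode. Reads had been processed with Cell Ranger 6.1.2 against mm10, per the submitters' processing notes, and the authors' count matrices hold 32285 genes in 55174 barcodes. The 8 hashing libraries were used only to assign cells to mice (leading hashtag at least 3 times the next, and at least 10 counts). Members and gene lists were chosen with earlier results of these data known.

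Counts of member cells were summed per library and tested with edgeR 4.0.16 (filterByExpr, TMM scaling, quasi-likelihood test, Benjamini-Hochberg adjustment over all genes) in R 4.3.3, with day as a covariate. Differences between cell sets used the library as a block, and the test between days used 1 mean per day and arm. Shares were compared with exact permutation tests over libraries, and their Benjamini-Hochberg adjustment used scipy 1.17.1. DESeq2 1.42.0, other size factors, no filter, thinned cells, other minimums for members, left-out doublets and left-out libraries were the alternatives. The tests were tried on simulated data with 200 changed genes, and at a log2 fold change of 1 found 99 of 100 in members (10792 genes) and 89 of 100 for the difference from other fibroblasts (11711 genes). They also called 26 and 9 unchanged genes, in that order. The simulated counts held no shared effect of day or library.

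Named genes were, for identity, the 20 with the highest and the 8 with the lowest mean ratio to other fibroblasts, at 20 CPM or more. For the response they were the 12 largest called changes in each direction, at 20 CPM or more and with the same direction in 5 pairs. For differences they were the 10 smallest adjusted p in each direction, or the 5 smallest p where fewer than 3 were called, again at 20 CPM or more. Other genes are named as members of the lists. Some genes that these rules name are not reported here. Libraries of the same day and round share a sequencing round, per the labels. Their deviations from the arm means over all days, which include any effect of day, correlated with r = 0.306, 0.459, 0.0839, 0.195 and 0.454. Doublets were marked with Scrublet (in scanpy 1.11.5) and by 2 hashtags, and were kept. Scrublet marked 0.0584% to 2.97% of cells per library. It marked under 0.5% in 4 of 10, the day 2 and day 4 expanded libraries and the day 2 round 1 control library. In each of these 4 it marked 0 members, so leaving out its doublets hardly tests expanded skin of day 2 and day 4. Across libraries, 526 kept barcodes (1.11%) occurred in more than 1. Depth, at 1344983 to 7936497 summed UMIs of members per library, limits the precision for genes of a few CPM.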

Additional observations from a re-analysis of the deposited data

Results flagged for a closer look

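Among 64 groups of 5 libraries examined, 9 held 1 library far from the other 4, where chance alone gives about 1 in 20. The expanded library of day 1 round 1 stood high in other fibroblasts (12.3% of kept cells), in Coch-positive members (12.9% of kept cells) and in Cyp2f2 (153 CPM). In control skin, day 1 round 1 was high in Cyp2f2 (348 CPM).

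Day 1 round 1 control members were also high in Mirg (94.8 CPM, against 26.2 to 43.9 CPM in the other 4) and in the share with exactly 3 UMIs of Coch and Crabp1 (16.4%). Day 1 round 2 control members stood high in Cemip (17.3 CPM, against 2.97 to 6.52 CPM) and in the share with 20 or more UMIs of the selecting genes (58.8%). Day 2 round 1 control members stood low in Cd74 (11.9 CPM, against 41.4 to 50.8 CPM). No cause was tested for any of these.

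The response to expansion differed between Coch Crabp1 cells and other fibroblasts for 11 named genes in edgeR's test of the difference. The log2 difference was 0.86 for Prnp, 1.18 for Ptgfrn, 0.79 for Slc16a1, 2.26 for Igfbp3, 0.87 for Adamts1, 1.02 for Adamts2, 0.69 for Lpar1, 0.79 for Dpt and 0.93 for Csf1, all more positive in Coch Crabp1 cells. It was -0.98 for Sdc1 and -1.41 for Spon2. None of the 11 kept its call in every fit without 1 library: the calls were kept in 1 to 8 of 10 such fits, and with no replicate block 2 genes were called in all.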

How the results depend on the processing

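The larger share of Coch Crabp1 cells among fibroblasts of expanded skin was 41.9 to 45.9 percentage points with thinned cells, a minimum of 5 UMIs, a minimum per 10000 UMIs, a wider collagen gate, without doublets and per mouse, and 42.0 to 47.0 points without single libraries. It was 30.6 points for Coch-positive cells alone, and as a share of kept cells the rise was 3.54 points. With day and round pairing as the replicate block, the difference of 44.6 points had p = 0.0625 in an exact sign-flip test, the smallest that 5 pairs allow.

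Of 1444 genes called in members, the replicate block gave 1948, DESeq2 1545 and a minimum of 5 UMIs 1183. The count was 2167 without the filter on low counts, 524 with cells thinned to 2000 UMIs, 799 in Coch-positive cells, and 740 to 1795 without single libraries. The difference from other fibroblasts, 17 genes, went to 2 with no replicate block, 111 with DESeq2, 382 without the filter, 59 with thinned cells, 29 with a minimum of 5 UMIs and 60 in Coch-positive cells, and ran from 0 to 110 without single libraries. The difference between days, 0 genes, was 0 with the block, 4 with DESeq2, 88 without the filter, 1 with thinned cells and 0 to 1 without single libraries. The difference between Coch-positive and Crabp1-only cells, 20 genes, was 0 with no replicate block, 73 with DESeq2, 376 without the filter and 1 to 41 without single libraries. The cause was not tested; fits without a library have fewer samples, and thinned cells fewer UMIs. Analyses by Coch alone were chosen after seeing the data.

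For the 24 named genes of the response, 464 values under 20 alternatives kept their direction, 450 also their call and 14 not: 11 of Cyp2f2 and 1 each of Ereg, Prg4 and Saa1. A lower minimum of cells per library, counted among the 20, removed no library and only repeated the main fit. Genes not tested under an alternative have no value there. These include Traf3ip3 and Cemip in Crabp1-only cells and Crybb3 and Lmcd1 in Coch-positive cells. Of 110 called list genes, 60 kept the call without every single library in turn. Members of 2 kinds were summed, each library pools several mice, and genes of a few CPM rest on few UMIs.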

Other observations

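Single mice within a pool varied less than the arms differed. Among fibroblasts assigned to a mouse by hashtag, the share of Coch Crabp1 cells ran from 21.3% to 26.2% over the 4 day 4 control mice. It ran from 71.0% to 89.7% over the 4 day 4 expanded mice. It was widest in the day 2 round 2 control pool, at 13.1% to 42.6% over 4 mice. The 4 expanded mice of that round had 13 to 30 fibroblasts each, so their shares are coarse.

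The share of members with UMIs of both Coch and Crabp1 was 46.0% to 74.8% in control and 49.4% to 70.0% in expanded libraries. Both genes belong to the rule, so these values are a description.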
